A study of Mus musculus with 2 samples.

Results

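Naive CD4 conventional T cells were defined among tumor-infiltrating T cells by counts of unique molecular identifiers (UMIs, each standing for 1 captured mRNA molecule). A cell was a member if it held at least 1 *Cd4* UMI, no *Foxp3*, *Cd8a*, *Cd8b1* or *Zbtb16* UMI, and at least 2 UMIs in all of *Ccr7*, *Igfbp4* and *Dapl1*. The rule found 258 members among 1769 conventional CD4 cells, which are the cells with *Cd4* but without *Foxp3* and CD8 UMIs. The members were 14.6% of these cells (95% interval 13.0 to 16.3) and 2.84% of the 9078 cells that passed the quality filter. They were compared with the 1365 conventional CD4 cells in which the sum of the 3 markers was 0, of which 16 held a *Zbtb16* UMI. Another 141 conventional CD4 cells had a sum of 1, and 5 had a sum of at least 2 together with a *Zbtb16* UMI, and neither set was used as members or as comparison cells.

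The cells came from C57BL/6-background mice that carried melanomas grown from intradermally injected B16 cells or from B16–IL-33 cells, a B16 line engineered to secrete interleukin 33 (IL-33). Tumors were taken on the ninth day after injection. T cells of both tumors were stained with hashtag antibodies, sorted, and loaded as 1 pool, from which a 5′ gene expression library, a hashtag library and a T cell receptor (TCR) library were made. The sources used here give neither the age nor the number of mice, and both tumor lines are transplanted cell lines. All members therefore come from 1 pool, cells of a pool are not replicates, and no test across animals was possible. Ranges in parentheses are 95% intervals that cover counting error only.

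Naive CD4 T cells are cells that have left the thymus and have not yet met their antigen. They circulate through lymph nodes, which they enter with the help of the chemokine receptor CCR7 and leave through the sphingosine-1-phosphate receptor S1PR1, whose gene is switched on by the transcription factor KLF2. A network of transcription factors that includes TCF-1 (*Tcf7*), LEF-1, FOXP1 and BACH2 holds them in a resting state, and stimulation through the TCR replaces this state by activation, proliferation and effector functions. Tumors are known mainly for activated and memory T cells, and cells with a naive profile can also reach them from the blood.

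The library covered 31053 mouse genes in 14035 barcodes, and the 9078 filtered cells had a median of 2467 UMIs. Members had a median of 2934.5 UMIs (754 to 10621), and the comparison cells had a median of 2350 UMIs (280 to 11351). The median number of detected genes was 1035.5 in members and 1032 in comparison cells. After each cell was thinned to 1500 UMIs, which left out 6 members and 300 comparison cells, the medians were 657 and 744 genes. All 258 members were also found in the hashtag library, which shares 11756 barcodes with the gene expression library, and 6665 of the 7857 barcodes of the TCR library were shared as well.

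The 3 markers contributed unequally to the choice of members. *Ccr7* was detected in 208 members with 477 UMIs, *Igfbp4*, which encodes a secreted binding protein of insulin-like growth factors, in 174 members with 582 UMIs, and *Dapl1* in 80 members with 147 UMIs. *Ccr7* and *Igfbp4* without *Dapl1* were found in 88 members, *Ccr7* alone in 67, and all 3 markers in 41. The median sum was 4 and the highest was 22, and 70 conventional CD4 cells sat at the lower limit of 2. *Igfbp4* (chromosome 11, 99041244 to 99054392) and *Ccr7* (chromosome 11, 99144196 to 99155077) are separated by 89803 bases in GENCODE vM21 on GRCm38, and *Dapl1* lies on chromosome 2 (59484653 to 59505020).

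Because these genes chose the members, their own levels in the members are no result. Each marker was therefore also held out in turn, and cells were chosen by the other 2 alone. Levels are given as summed CPM, the UMIs of a gene summed over a group of cells per 1000000 UMIs of the same cells. *Ccr7* reached 381 CPM (331 to 437) in the 152 cells chosen by *Igfbp4* and *Dapl1*, against 73.8 CPM (65.8 to 82.5) in the 1531 cells with neither, a ratio of 5.16 (4.31 to 6.18). *Igfbp4* reached 519 CPM in the 174 cells chosen by *Ccr7* and *Dapl1*, against 31.2 CPM, a ratio of 16.7 (13.5 to 20.7). *Dapl1* reached 143 CPM in the 239 cells chosen by *Ccr7* and *Igfbp4*, against 9.20 CPM, a ratio of 15.6 (10.6 to 23.4). Each marker was thus higher in cells chosen by the others, beyond counting error.

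The label was set beside 10 genes of the naive state that the rule did not use. Members and gene lists were chosen with earlier results of these data known, so this is no independent check of the label. All 10 genes were higher in members than in comparison cells, and 9 of them were at least 2-fold higher. Among all 4841 genes with at least 100 UMIs over both groups, 59 genes (1.22%) were at least 2-fold higher in members and 478 genes (9.87%) were at least 2-fold lower, and the median ratio was 0.820. Members held 869991 UMIs and comparison cells 3719834, so genes high in comparison cells reached this minimum more easily. *Il17a* (0 and 120 UMIs) reached it through the comparison cells alone. The excess of lower genes therefore depends in part on this filter. The 59 higher genes became 115 with no upper limit on detected genes, 34 after thinning and 26 with the rule on a random part of the UMIs and levels from the rest. The number of tested genes also differed between these settings, so the counts are not shares of the same set. *Lef1*, which encodes a transcription factor of naive T cells, was at 375 CPM (335 to 418) in members and 81.2 CPM (72.3 to 90.9) in comparison cells, a ratio of 4.62 (3.93 to 5.42). *Tcf7*, which encodes its partner TCF-1, was at 489 and 193 CPM, a ratio of 2.53 (2.24 to 2.85). *Il7r*, the receptor for the survival cytokine IL-7, which memory cells express as well, was at 410 and 311 CPM and was the marker below 2-fold, with a ratio of 1.32 (1.17 to 1.49).

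Genes of lymphoid recirculation were higher in members. *S1pr1*, the exit receptor, was at 195 CPM in members and 85 CPM in comparison cells, a ratio of 2.30 (1.90 to 2.78). *Klf2* was at 1599 and 726 CPM, a ratio of 2.20 (2.06 to 2.35). *Klf3*, a related factor, had a ratio of 2.49 (2.04 to 3.02). Over the whole list of quiescence and lymphoid homing genes, 13 of 27 tested genes were at least 2-fold higher, none was at least 2-fold lower, and the median ratio was 1.91. This list holds all 10 naive genes counted above, and 9 of its 13 higher genes are theirs, so the counts overlap.

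Other regulators of the resting state followed. *Bach2*, a repressor of effector genes, was at 69.0 CPM in members and 18.8 CPM in comparison cells, a ratio of 3.66 (2.55 to 5.25). *Foxp1* had a ratio of 2.56 (2.15 to 3.04) and *Satb1*, a chromatin organizer, one of 2.29 (2.01 to 2.60). *Pik3ip1*, an inhibitor of phosphoinositide 3-kinase, was at 71.3 and 16.4 CPM, a ratio of 4.35 (3.0 to 6.29). *Foxo1*, which controls *Klf2*, was at 129 and 86.6 CPM, a ratio of 1.49 (1.19 to 1.85), and *Txnip* was at 301 and 157 CPM, a ratio of 1.91 (1.65 to 2.22). The list also held genes without a difference of that size, among them *Ets1* (ratio 1.00, 0.91 to 1.10), *Ms4a4b* (0.94, 0.85 to 1.03) and *Btg2* (0.85, 0.74 to 0.96).

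The 10 genes with the highest ratios, ranked by the lower bound of the interval, were *Rflnb*, *Actn1*, *Lef1*, *Bcl2*, *Nsg2*, *Pik3ip1*, *Scml4*, *Sh3bp5*, *Bach2* and *Rapgef6*. *Rflnb* (refilin B, which binds filamin) was at 189 CPM in members and 34.4 CPM in comparison cells, a ratio of 5.48 (4.32 to 6.96), and was detected in 105 members. *Actn1*, which encodes the actin-crosslinking protein alpha-actinin 1, was at 198 and 36.8 CPM, a ratio of 5.37 (4.26 to 6.77). *Bcl2*, the antiapoptotic protein that keeps resting T cells alive, was at 213 and 50.3 CPM, a ratio of 4.23 (3.43 to 5.21). *Nsg2* had a ratio of 4.32 (3.23 to 5.77) and *Scml4* one of 4.14 (2.85 to 6.0). *Rapgef6*, a guanine nucleotide exchange factor for Rap GTPases, was at 710 and 265 CPM, a ratio of 2.69 (2.42 to 2.97), and was detected in 201 members.

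**Figure D1:**
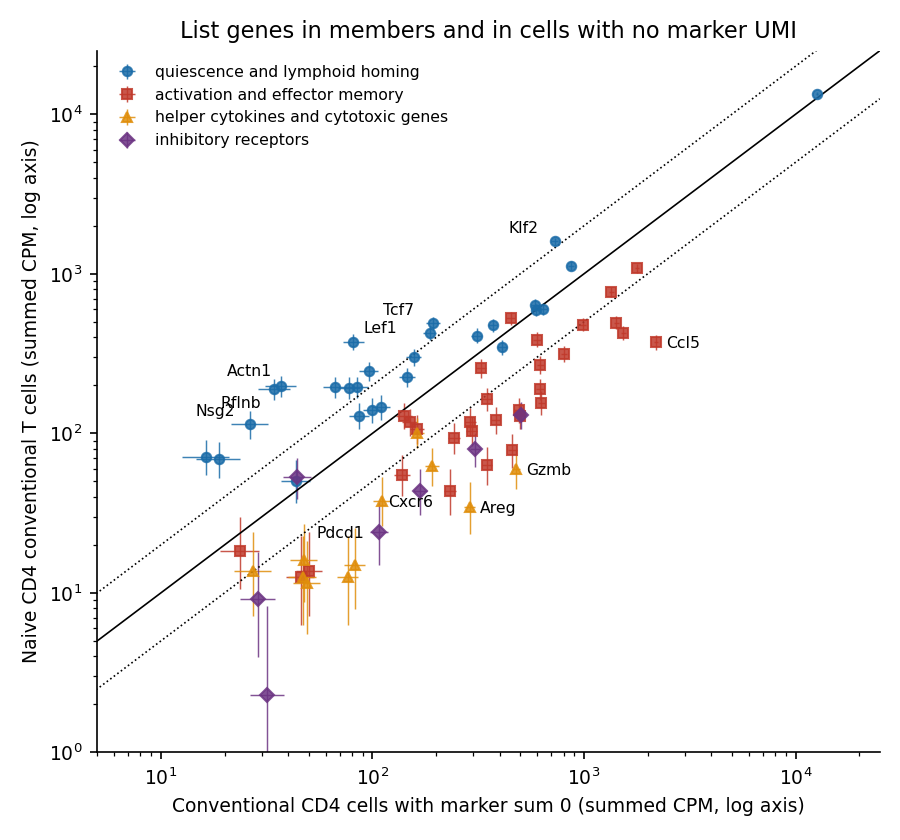
Summed CPM of the tested genes of 4 lists (quiescence, activation, cytokine and cytotoxic, inhibitory receptor genes) in members (vertical, log axis) against conventional CD4 cells with marker sum 0 (horizontal, log axis), with 95% Poisson intervals; the solid line marks equal levels and the dotted lines 2-fold differences. Quiescence genes such as *Lef1* (375 against 81.2 CPM) lie on or above the upper dotted line or near the solid line, and most activation genes such as *Ccl5* (372 against 2183 CPM) lie on or below the lower one; *Il17a*, at 0 in members, is not drawn.

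Activation and effector memory genes were lower in members. Of 30 tested genes of this list, 21 were at least 2-fold lower, none was at least 2-fold higher, and the median ratio was 0.388. *Cd44*, the adhesion molecule used to tell memory from naive T cells, was at 55.2 CPM (40.7 to 73.2) in members and 138 CPM (127 to 151) in comparison cells, a ratio of 0.40 (0.29 to 0.54). The ratio of *Cd44* was 0.70 (0.57 to 0.86) when cells with more than 2500 genes were kept, and 0.21 (0.08 to 0.46) when the rule read a random part of the UMIs and levels came from the rest. *S100a4*, a calcium-binding protein of memory cells, was at 63.2 and 349 CPM, a ratio of 0.18 (0.14 to 0.24). *Cxcr6*, a chemokine receptor of tissue T cells, was at 43.7 and 233 CPM, a ratio of 0.19 (0.13 to 0.26), which lay between 0.08 and 0.34 under the other settings.

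Costimulatory receptors of the tumor necrosis factor receptor family showed the same direction. *Tnfrsf9* (4-1BB) was at 78.2 CPM in members and 458 CPM in comparison cells, a ratio of 0.17 (0.13 to 0.22) that became 0.36 (0.25 to 0.52) after thinning, *Tnfrsf4* (OX40) had a ratio of 0.25 (0.21 to 0.29), and *Tnfrsf18* (GITR) one of 0.31 (0.26 to 0.36). *Icos* was at 140 and 490 CPM, a ratio of 0.29 (0.24 to 0.34) that lay between 0.18 and 0.36 under the other settings. The costimulatory receptor *Cd28* was at 256 and 326 CPM, a ratio of 0.79 (0.68 to 0.91). *Cd69*, which is induced within hours of activation and holds cells in tissue, was not lower, at 526 and 451 CPM (ratio 1.17, 1.05 to 1.30), and its ratio was 0.93 (0.84 to 1.03) when cells with more than 2500 genes were kept.

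*Ccl5*, a chemokine of effector and memory T cells, was at 372 CPM (333 to 415) in members and 2183 CPM (2135 to 2231) in comparison cells, a ratio of 0.17 (0.15 to 0.19). Its UMIs in the members were concentrated, since 92 members held any and 10 cells held 66.7% of the 324 UMIs. With cells thinned to 1500 UMIs, a *Ccl5* UMI was found in 23.8% of members (18.7 to 29.6), in 48.5% of comparison cells and in 15.4% (9.56 to 23.1) of cells with at least 3 *Lyz2*, *C1qa* or *C1qb* UMIs and no CD3 UMI. These cells have a myeloid profile, and since myeloid cells can transcribe *Ccl5*, their share is not a clean background level. Before thinning, these shares were 35.7%, 56.3% and 29.0%, at median depths of 2934.5, 2350 and 3642.5 UMIs. The intervals of the members and of the cells without CD3 overlapped after thinning, and how much of the *Ccl5* detection in members is background was not tested. *Lef1* was found after thinning in 46.8% of members (40.5 to 53.2), 11.7% of comparison cells and 1.63% of the same cells without CD3, and its 10 richest members held 14.1% of its UMIs.

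Genes of effector function were low in members. Of 12 tested helper cytokine and cytotoxic genes, 10 were at least 2-fold lower, none was at least 2-fold higher, and the median ratio was 0.253. *Gzmb*, which encodes granzyme B, was at 59.8 CPM in members and 477 CPM in comparison cells, a ratio of 0.13 (0.09 to 0.17) that became 0.23 (0.14 to 0.35) after thinning. *Areg*, which encodes the growth factor amphiregulin, was at 34.5 and 289 CPM, a ratio of 0.12 (0.08 to 0.17), with 30 UMIs in 17 members and a range of 0.08 to 0.19 under the other settings. *Ifng*, the cytokine of type 1 helper cells, was at 37.9 and 111 CPM, a ratio of 0.34 (0.23 to 0.49), and 10 members held 81.8% of its UMIs. *Il17a* had no UMI in members and 120 UMIs in 15 comparison cells, 32.3 CPM. With 3 UMIs over the group taken as the floor, this is at least 9.36-fold lower in members by UMI counts alone. Because so few comparison cells held the gene, its absence from the members does not bound the difference between the groups.

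Inhibitory receptors and lineage factors were lower as well. Of 7 tested inhibitory receptor genes, 6 were at least 2-fold lower, with a median ratio of 0.259. *Pdcd1* (PD-1) was at 24.1 CPM in members and 107 CPM in comparison cells, a ratio of 0.23 (0.14 to 0.35) and a range of 0.15 to 0.36 under the other settings, and *Entpd1* (CD39) had 2 UMIs in members and 118 in comparison cells, a ratio of 0.07 (0.01 to 0.27). *Tox*, a factor of exhausted T cells that earlier T cells also express, was at 52.9 and 44.1 CPM, a ratio of 1.20 (0.85 to 1.67). Among helper lineage transcription factors 7 of 13 were at least 2-fold lower, none was at least 2-fold higher, and the median ratio was 0.480. *Rora* (ratio 0.34, 0.25 to 0.44), *Hif1a* (0.35, 0.30 to 0.41), *Gata3* (0.47, 0.35 to 0.62) and *Tbx21* (0.47, 0.26 to 0.80) were among them, whereas *Runx1* did not differ beyond counting error (0.98, 0.77 to 1.24).

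Cytokine receptors divided in direction. *Il6ra*, the receptor for IL-6, was at 98.9 CPM in members and 31.7 CPM in comparison cells, a ratio of 3.12 (2.33 to 4.15), and *Il4ra*, the receptor for IL-4, was at 86.2 and 51.6 CPM, a ratio of 1.67 (1.26 to 2.19). With the rule on a random part of the UMIs and levels from the rest, the interval of *Il6ra* included 1 (1.69, 0.79 to 3.28). The inhibitors of cytokine signaling *Socs1* and *Socs3* were at 318 and 297 CPM in members and at 134 and 126 CPM in comparison cells, with ratios of 2.38 (2.05 to 2.76) and 2.36 (2.02 to 2.75). *Cish* (0.30, 0.20 to 0.44) and *Socs2* (0.31, 0.14 to 0.60), of the same family, were lower. The receptor subunits *Il2ra* (0.22, 0.14 to 0.32), *Il2rb* (0.26, 0.21 to 0.32), *Il12rb1* (0.19, 0.08 to 0.40) and *Il18r1* (0.33, 0.22 to 0.47) were lower, and *Il1rl1*, which encodes the receptor for IL-33, had 10 UMIs in members and 164 in comparison cells, a ratio of 0.26 (0.12 to 0.49). In the whole list of 22 tested genes, 3 were at least 2-fold higher and 10 at least 2-fold lower.

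Receptors for inflammatory chemokines were low. *Ccr2* was at 56.3 CPM in members and 280 CPM in comparison cells, a ratio of 0.20 (0.15 to 0.27) that lay between 0.11 and 0.29 under the other settings, and *Cxcr3* had a ratio of 0.31 (0.23 to 0.42). *Gpr183*, a receptor for oxysterols that positions cells in lymphoid organs, was at 151 and 106 CPM, a ratio of 1.42 (1.16 to 1.74). Of 8 tested chemokine receptor genes, 5 were at least 2-fold lower and none at least 2-fold higher.

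The TCR signaling machinery differed little between the groups. Of 23 tested genes, none was at least 2-fold higher and 1 was at least 2-fold lower, with a median ratio of 0.901, which moved to 1.06 when CPM were scaled without ribosomal protein genes. *Cd3e* was at 794 CPM in members and 924 CPM in comparison cells, a ratio of 0.86 (0.79 to 0.93). *Dgka*, a diacylglycerol kinase that limits TCR signals, was at 262 and 132 CPM, a ratio of 1.99 (1.69 to 2.33), and *Ptpn22*, a phosphatase that does so too, was the lower gene at 64.4 and 174 CPM (0.37, 0.28 to 0.49). Among immediate early genes 3 of 19 were at least 2-fold lower, *Nr4a1* (0.48, 0.37 to 0.61), *Nr4a3* (0.26, 0.10 to 0.55) and *Dusp1* (0.45, 0.39 to 0.52), while *Jun* was at 714 and 457 CPM, a ratio of 1.56 (1.42 to 1.71). Of 10 heat shock genes, which tissue dissociation can induce, none passed 2-fold in either direction, and their median ratio of 0.904 moved to 1.06 on the same scale.

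Genes of glycolysis were lower in members. Of 17 tested genes of glycolysis and hypoxia, 11 were at least 2-fold lower, 1 was at least 2-fold higher, and the median ratio was 0.463. *Gapdh* was at 633 CPM in members and 1368 CPM in comparison cells, a ratio of 0.46 (0.42 to 0.51), and *Bnip3*, a target of hypoxia, had a ratio of 0.22 (0.12 to 0.38). The exception was *Pdk1*, which encodes a pyruvate dehydrogenase kinase, at 82.8 and 38.2 CPM (2.17, 1.61 to 2.90). With the rule on a random part of the UMIs, the interval of *Pdk1* included 1 (1.25, 0.60 to 2.38). With no upper limit on detected genes, the median ratio of this list was 0.763. *Mki67*, a marker of dividing cells, was at 10.3 and 45.2 CPM, a ratio of 0.23 (0.10 to 0.45). Of 12 tested cell cycle genes 2 were at least 2-fold lower, against 9.87% of all tested genes. An interval below 1 was found for 5 of the 12, against 1593 of all 4841 tested genes.

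Survival genes other than *Bcl2* showed different directions. *Mcl1* was at 315 CPM in members and 209 CPM in comparison cells, a ratio of 1.5 (1.31 to 1.73), whereas *Bcl2l1*, which encodes BCL-xL, had 13 UMIs in members and 186 in comparison cells, a ratio of 0.30 (0.16 to 0.52), and *Bcl2a1b* had a ratio of 0.38 (0.25 to 0.54). *Bcl2a1b* has near-identical copies, so its count is uncertain. The proapoptotic *Pmaip1* (NOXA) had a ratio of 0.20 (0.08 to 0.42). In the list of 14 tested genes, 1 was at least 2-fold higher, 5 were at least 2-fold lower, and the median ratio was 0.703.

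Interferon-induced genes and MHC class I genes were lower on the whole. Among 21 tested interferon-induced genes 5 were at least 2-fold lower, 1 was at least 2-fold higher, and the median ratio was 0.656. *Ly6a* (Sca-1) was at 548 CPM in members and 1823 CPM in comparison cells, a ratio of 0.30 (0.27 to 0.33), and *Isg15* had a ratio of 0.41 (0.33 to 0.50). *Ly6c1*, at 92.0 and 28.8 CPM, was the higher gene (3.20, 2.36 to 4.31), whereas its near-identical neighbor *Ly6c2* had a ratio of 0.66 (0.53 to 0.80), and reads of these genes may be split between them. All 10 MHC class I genes had an interval below 1, with ratios between 0.46 (*Tap1*) and 0.73 (*Tapbp*). Over the whole table, 1593 of 4841 tested genes had such an interval, and the median ratio was 0.820. Of the 8 GIMAP genes, which encode GTPases of lymphocyte survival, *Gimap6* was at 753 and 540 CPM (1.39, 1.27 to 1.52) and *Gimap7* at 94.3 and 293 CPM (0.32, 0.25 to 0.40), with a median ratio of 0.722.

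Ribosomal protein genes took a larger part of the RNA in members. They made up 40.3% of UMIs in members and 29.7% in comparison cells. Of all 4841 tested genes, 345 had an interval above 1 and 1593 had one below 1. Of the 86 tested ribosomal protein genes, 77 had an interval above 1, although none was at least 2-fold higher. Mitochondrially encoded genes moved the same way, with 2.81% of UMIs in members and 2.27% in comparison cells, 12 of 13 intervals above 1 and a summed ratio of 1.23 (1.22 to 1.25), and the part of RNA quality in the results was not tested. Elongation factors and other translation genes had a median ratio of 1.12 over 18 tested genes, with *Eef1b2* at 1.36 (1.28 to 1.43) and *Npm1* at 1.32 (1.23 to 1.43). When CPM were scaled without ribosomal protein genes, all ratios shifted by 0.24 on the log2 scale, the median ratio of the table became 0.966, and the genes past 2-fold numbered 93 higher and 294 lower, so that higher genes were 24.0% of these in place of 11%. Changes of a similar size to this shift therefore depend on the scale.

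The remaining genes of the 10 lowest ratios included genes of few cells. Those named next reached the minimum of 100 UMIs through the comparison cells alone. *Klrg1*, a receptor of terminally differentiated T cells, had 7 UMIs in members and 365 in comparison cells, a ratio of 0.08 (0.03 to 0.17). *Hbb-bs*, a hemoglobin gene of red cells, had 1 UMI in members and 158 UMIs in 8 comparison cells. *Cxcl2*, a chemokine made mainly by myeloid cells, had 7 UMIs in members and 370 UMIs in 35 comparison cells, a ratio of 0.08 (0.03 to 0.17), and its ratio was 1.19 (0.99 to 1.42) when cells with more than 2500 genes were kept.

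Markers of other cell types were measured over whole lists in both groups. Of 14 tested regulatory T (Treg) cell markers, 11 were at least 2-fold lower in members and none was at least 2-fold higher, and the summed level of the list was 1033 CPM in members and 3708 CPM in comparison cells. *Ikzf2* (Helios) was at 82.8 CPM in members, 340 CPM in comparison cells and 498 CPM in the 75 *Foxp3*-positive CD4 cells with the same marker sum. An *Il2ra* or *Ikzf2* UMI was found in 53 members (20.5%), in 597 comparison cells (43.7%) and in 1182 (90.8%) of the *Foxp3*-positive cells. With such cells left out of both groups, which left 205 members and 768 comparison cells, *Lef1* had a ratio of 4.32, *Cd44* 0.32, *Ctla4* 0.23 and *Tnfrsf9* 0.14, and 44 genes were at least 2-fold higher and 302 lower among 3185 tested.

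CD8 and innate-like list genes were lower, with 7 of 7 tested CD8 T cell genes and 2 of 2 tested NK and innate-like genes at least 2-fold lower. *Cd8a* and *Cd8b1* were left out as genes of the rule. *Gzma*, *Gzmb*, *Gzmk*, *Prf1*, *Nkg7* and *Ccl5* of the CD8 list also stand in the cytotoxic or activation lists above. Its counts are therefore not a separate result about CD8 identity. Their summed levels were 637 and 3394 CPM for the CD8 list and 120 and 453 CPM for the innate-like list, in members and comparison cells respectively. *Ccl5* alone made up 372 and 2183 CPM of the CD8 list. *Tcrg-C1* and *Tcrg-C2*, the constant parts of the gamma chain, had no UMI in members and 21 and 19 UMIs in comparison cells. Myeloid markers summed to 500 CPM in members and 1014 CPM in comparison cells. *S100a8* and *S100a9* had no UMI in members, and their UMIs in comparison cells lay in only 4 and 2 cells. *C1qa*, with 20 UMIs in 3 members and 42 UMIs in comparison cells, had a ratio of 2.04 (1.13 to 3.55). That interval counts UMIs and does not cover the small number of members that held them. Melanoma genes summed to 13.8 CPM in members and 36.8 CPM in comparison cells. The B cell genes *Cd79a* and *Ms4a1* had no UMI in either group, but *Ighm*, the immunoglobulin mu heavy chain gene, was at 244 CPM in members and 156 CPM in comparison cells, a ratio of 1.56 (1.33 to 1.83). The part of these cell types in the results above was not tested, apart from the Treg cell genes.

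Levels by marker sum were then given for conventional CD4 cells without *Zbtb16*, with 1349 cells at 0, 141 at 1, 69 at 2, 54 at 3, 40 at 4 and 95 at 5 or more. For the genes and the list described next, the cells just outside the rule, with a sum of 1, stood between the cells at 0 and those at 2. *Lef1* was at 79.7 CPM at a sum of 0, 183 CPM at 1 and 371 CPM at 2, and then at 290, 395 and 411 CPM. *S100a4* was at 354, 153 and 45.7 CPM at sums of 0, 1 and 2, and then at 55.8, 67.1 and 75 CPM. The summed activation and effector memory list was at 17716 CPM at a sum of 0, 10402 CPM at 1 and between 6632 and 8591 CPM in the 4 classes of members. *Ctla4* (122, 112, 305 and 77.8 CPM at sums of 2, 3, 4 and 5 or more) and *Ccl5* (163, 234, 1006 and 320 CPM) peaked at a sum of 4, where there were 40 cells.

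**Figure D2:**
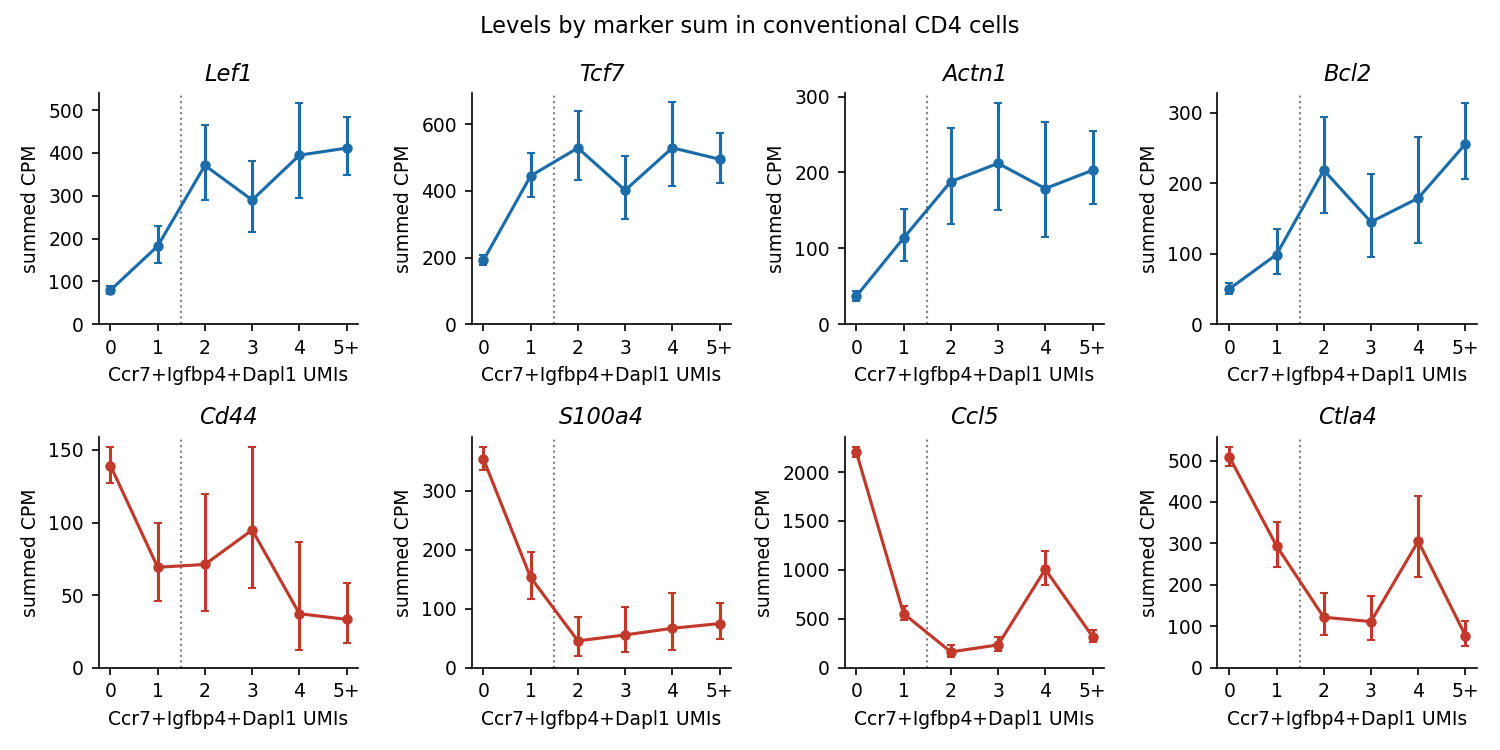
Summed CPM of 8 genes (vertical) in conventional CD4 cells without *Zbtb16*, by the UMIs of *Ccr7*, *Igfbp4* and *Dapl1* in a cell (horizontal); bars are 95% Poisson intervals and the dotted line is the lower limit of the rule. *Lef1* goes from 79.7 CPM at 0 to 371 CPM at 2 and *S100a4* from 354 to 45.7 CPM, and the intervals of the 4 classes of members overlap for both genes.

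Members with and without *Igfbp4* differed from each other. The 174 members with an *Igfbp4* UMI had *Lef1* at 461 CPM (408 to 519), *Bcl2* at 265 CPM (225 to 309) and *Actn1* at 235 CPM (198 to 277). The 84 members without one had *Lef1* at 182 CPM (135 to 241), *Bcl2* at 96.6 CPM (63.1 to 142) and *Actn1* at 115 CPM (78.2 to 163). *Cd44* was at 28.3 CPM (16.5 to 45.3) with *Igfbp4* and at 115 CPM (78.2 to 163) without it, and none of these pairs of intervals overlapped. Treg cell markers summed to 834 CPM with *Igfbp4* and to 1478 CPM without it, and activation genes to 6264 and 9364 CPM. By contrast, the intervals overlapped for *Tcf7* (519 and 420 CPM) and *Rflnb* (196 and 171 CPM). Members with and without *Ccr7* also differed by UMI counts. *Ctla4* was at 149 CPM (122 to 181) with *Ccr7* and 51.9 CPM (23.7 to 98.6) without it. Treg cell markers summed to 1104 and 750 CPM, inhibitory receptors to 400 and 231 CPM and naive CD4 markers to 4224 and 3693 CPM, all with intervals that did not overlap. These intervals count UMIs and do not cover the spread between members. The member richest in *Ctla4* held 21 of the 113 *Ctla4* UMIs of all members. The 50 members without *Ccr7* held 9. Whether a few cells made the *Ctla4* difference was not tested. Members with *Dapl1* had lower summed activation genes (6536 CPM) than those without it (7533 CPM). *Lef1* had overlapping intervals in both of these splits, at 383 and 340 CPM with and without *Ccr7*, and at 399 and 364 CPM with and without *Dapl1*. The median depths were 3014.5 UMIs with *Igfbp4* and 2794.5 UMIs without it.

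The same marker sum was then counted in the other T cell classes of the pool. It was reached, without *Zbtb16*, by 14.6% of conventional CD4 cells, by 10.9% (9.15 to 12.9) of 1127 cells with CD8 UMIs only and by 5.76% (4.56 to 7.17) of 1302 *Foxp3*-positive CD4 cells. The share among conventional CD4 cells was 3.67 percentage points (1.13 to 6.14) above that of CD8 cells and 8.82 points (6.68 to 10.9) above that of *Foxp3*-positive cells, although both of those had deeper medians (3270 and 3207 UMIs against 2498). With all cells thinned to 1500 UMIs before the rule, the shares were 8.84% of 1176, 4.52% of 951 and 2.25% of 489 cells. The differences were 4.32 points (2.14 to 6.48) and 6.59 points (4.26 to 8.69). Thinning also removed *Cd4*, *Foxp3* and CD8 UMIs, by which the classes were set, so these are not the same classes of cells at equal depth. A *Foxp3*-positive CD4 cell that kept *Cd4* but lost its *Foxp3* UMIs was counted as conventional. Cells with no *Cd4*, *Cd8a*, *Cd8b1* or *Foxp3* UMI reached the sum in 384 of 3050 cases (12.6%, 11.4 to 13.8) at a median of 1926.5 UMIs. After thinning, 3198 cells had no such UMI. Their share of 10.3% (9.23 to 11.4) was above the 8.84% (7.28 to 10.6) of conventional CD4 cells, with overlapping intervals.

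Against the 123 CD8 cells with the same marker sum (median 4215 UMIs), members had higher levels of several naive genes. Of 1528 tested genes, 30 (1.96%) were at least 2-fold higher in members and 28 (1.83%) at least 2-fold lower. Among 24 tested quiescence and homing genes 1 was at least 2-fold higher and none lower, and the median ratio was 1.49. Of 24 tested activation genes 3 were at least 2-fold higher in members and 4 lower, with a median ratio of 0.890. The medians of interferon-induced and MHC class I genes were 1.00 and 0.957. The activation genes *Maf* (2.97, 1.81 to 5.09) and *Tnfrsf4* (2.54, 1.74 to 3.80) were among the 10 highest ratios. *Lef1* was at 375 CPM in members and 195 CPM (161 to 235) in these CD8 cells, *S1pr1* at 195 and 90.6 CPM, and *Klf2* at 1599 and 1002 CPM, whereas *Bcl2* was at 213 and 195 CPM with overlapping intervals. The highest ratios included *Cd40lg*, the ligand by which CD4 cells help B cells and dendritic cells, at 117 and 22.7 CPM (5.18, 2.90 to 10.1), *Izumo1r*, the folate receptor 4, at 137 and 38.3 CPM (3.57, 2.25 to 5.91), and *Penk*, which encodes proenkephalin, at 102 UMIs in 11 members and 3 UMIs in 3 CD8 cells (22.4, 7.46 to 111). The lowest ratios were those of *Gzma*, *Ccl5*, *Ly6c2*, *Nkg7* and *Klrd1*. *Ccl5* was at 3133 CPM in these CD8 cells, against 372 CPM in members, and *Nkg7* at 885 and 129 CPM, so the CD8 cells chosen by the same sum carried effector transcripts.

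Against the 75 *Foxp3*-positive CD4 cells with the same sum (median 3997 UMIs), members were lower in Treg cell and activation genes. Of 1379 tested genes, 13 (0.943%) were at least 2-fold higher and 86 (6.24%) at least 2-fold lower. All 8 tested Treg cell markers and 12 of 25 tested activation genes were at least 2-fold lower, and 1 activation gene was at least 2-fold higher. *Tnfrsf4* was at 155 CPM in members and 1136 CPM in these cells (0.14, 0.11 to 0.17) and *Ctla4* at 130 and 682 CPM. Of 24 tested quiescence genes 3 were at least 2-fold higher, among them *Rflnb* (189 and 60.4 CPM, 3.12, 1.97 to 5.18), *S1pr1* (195 and 74.8 CPM, 2.61, 1.72 to 4.11) and *Nsg2* (114 and 40.3 CPM, 2.83, 1.61 to 5.36). *Pim2*, which encodes a survival kinase, was at 126 and 28.8 CPM (4.39, 2.30 to 9.42). The heat shock genes *Hspa1a* (536 and 193 CPM, 2.78, 2.15 to 3.65) and *Dnajb1* (384 and 158 CPM, 2.43, 1.82 to 3.29) were also among the highest ratios, 2 of 10 genes of that list were at least 2-fold higher, and their part in the other differences was not tested. The MHC class II genes *H2-Eb1*, *H2-Ab1* and *H2-Aa* were among the lowest ratios, with 104, 93 and 107 UMIs held by 5, 8 and 6 of the *Foxp3*-positive cells.

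Cells with the marker sum but without any lineage UMI resembled the members in these genes. Of 2101 tested genes, 2 (0.0952%) were at least 2-fold higher in members and 27 (1.29%) at least 2-fold lower, and none of the 27 tested quiescence genes passed 2-fold in either direction. *Lef1* was at 377 CPM (342 to 415) in these 384 cells and 375 CPM in members, *Klf2* at 1585 and 1599 CPM, and *Actn1* at 214 and 198 CPM. Of 8 tested myeloid genes 7 were at least 2-fold lower in members, with sums of 500 and 2953 CPM. These cells had a median of 2498 UMIs, and the absence of *Cd4* UMIs in them does not show the absence of CD4.

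**Figure D3:**
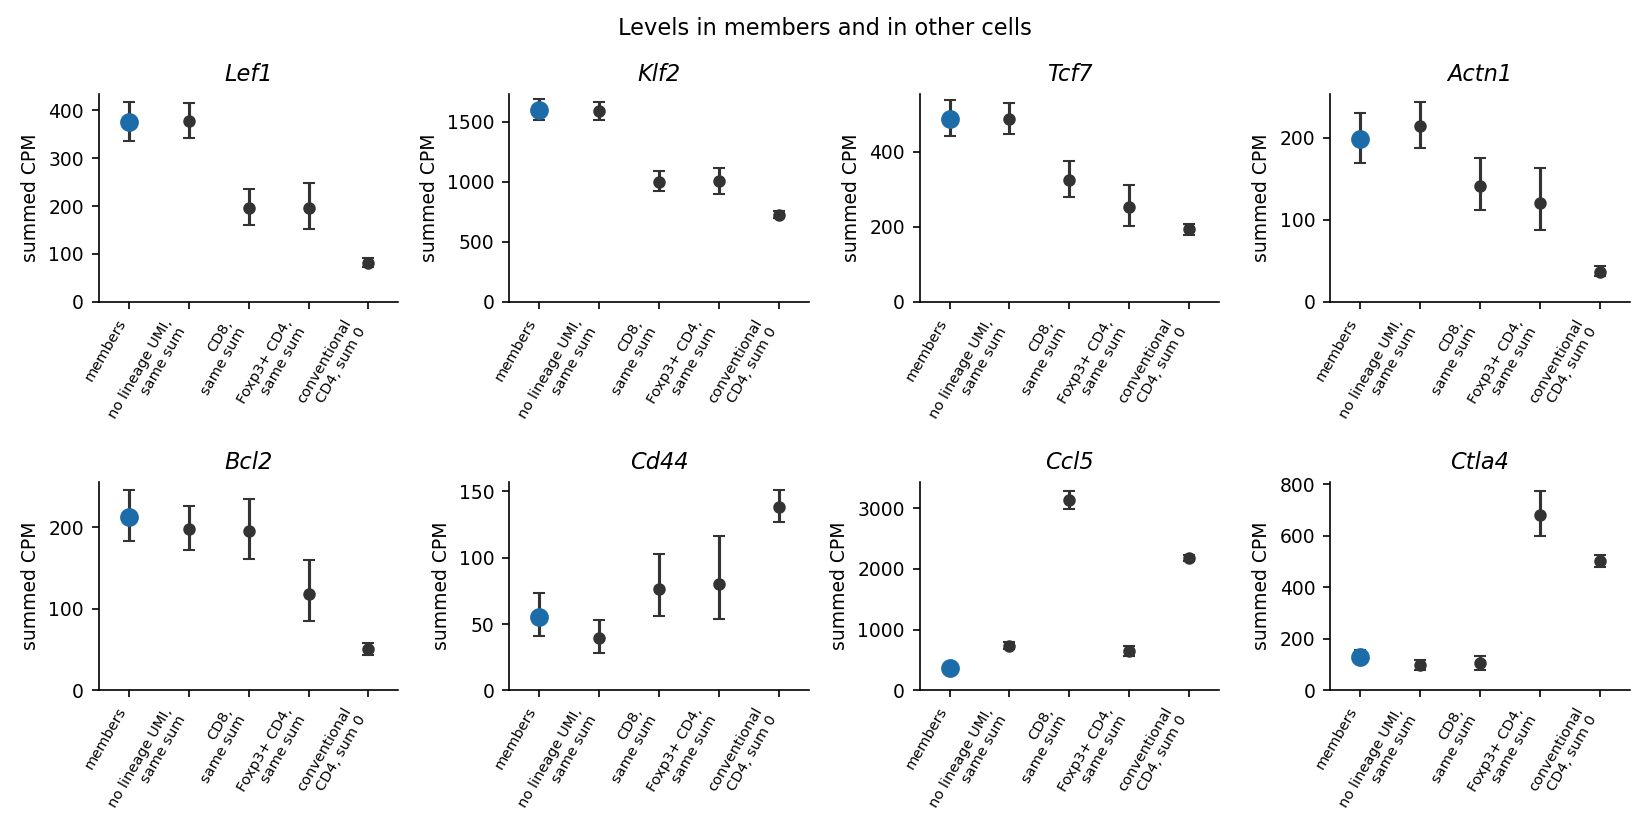
Summed CPM of 8 genes (vertical) in members (blue) and in 4 other groups of cells (black), with 95% Poisson intervals; "same sum" means at least 2 UMIs of the 3 markers and no *Zbtb16*. *Lef1* and *Klf2* are alike in members and in cells without lineage UMIs (375 and 377 CPM, 1599 and 1585 CPM) and lower in the other groups, and *Ccl5* is highest in the CD8 cells (3133 CPM).

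The TCR library gave a clonotype, the set of alpha and beta chain sequences called as 1 clone, for 192 members (74.4%) and 881 comparison cells (64.5%). Both an alpha and a beta chain were found in 115 members and 535 comparison cells, and many of the other clonotypes rest on a single kind of chain. These 192 members carried 192 different clonotypes, and no clonotype was found in 2 members. Only 2 members (1.04%, 0.126 to 3.71) belonged to clones of at least 2 filtered cells, against 108 comparison cells (12.3%, 10.2 to 14.6), a difference of 11.2 percentage points (7.82 to 13.7). With clones defined by the beta chain alone these shares were 3.82% and 23.2%, a difference of 19.4 points (14.2 to 23.4), with clones defined by both chains 1.74% and 13.8%, and with clones of at least 3 cells the difference was 4.93 points (2.19 to 6.71). Of the cells with the same marker sum, 6 of 98 CD8 cells (6.12%, 2.28 to 12.9), 2 of 63 *Foxp3*-positive cells (3.17%, 0.387 to 11) and 2 of 253 cells without lineage UMIs (0.791%, 0.0959 to 2.83) were in such clones. Of these 3 groups, only the CD8 cells differed from members by an interval above 0, by 5.08 points (0.401 to 11.9). At least 2 productive beta chains, which can mark 2 cells in 1 droplet, were found in 25 members (13.0% of those with a clonotype) and 64 comparison cells (7.26%), and no cells were removed for it.

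**Figure D4:**
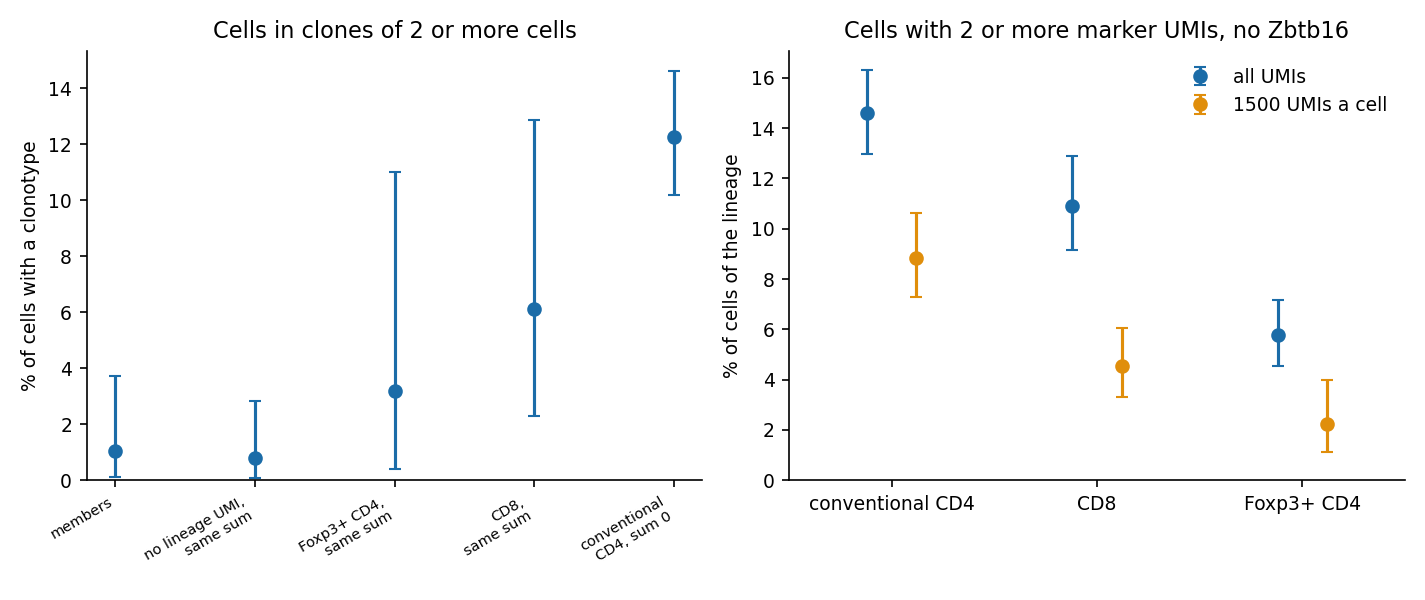
Left, the percentage of cells with a clonotype that belong to clones of at least 2 filtered cells (vertical) by group of cells; right, the percentage of each lineage that reaches the marker sum, from all UMIs (blue) and from 1500 UMIs a cell (orange). Bars are 95% Clopper-Pearson intervals. Members are at 1.04% and cells with marker sum 0 at 12.3% on the left. On the right, conventional CD4 cells are above CD8 and *Foxp3*-positive cells at both depths. At 1500 UMIs, the lineages were set from the thinned UMIs.

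The sequences of the 2 clones that joined a member to other cells are shown because they are the shared receptors of the members, and they were chosen after the values were seen. Each is the CDR3, the part of the chain that contacts the antigen, from 5′ to 3′, and capitals mark bases between the matched germline V and J segments, which include any D segment. The first clone held 3 cells, a member with 4 *Ccr7* UMIs, a cell without lineage UMIs that had 5 *Ccl5* UMIs, and a cell with a *Foxp3* but no *Cd4* UMI, and only the member had a marker UMI. The second held 2 cells, a member with a marker sum of 7 and 3 *Ccl5* UMIs and a conventional CD4 cell with a sum of 0 and 16 *Ccl5* UMIs. For comparison, the last pair, chosen in the same way, belongs to the member with the highest marker sum, 22, of which 21 UMIs were *Igfbp4*.
First clone, beta chain, TRBV29 and TRBJ2-4: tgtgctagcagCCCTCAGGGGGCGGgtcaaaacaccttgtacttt
First clone, alpha chain, TRAV7-4 and TRAJ57: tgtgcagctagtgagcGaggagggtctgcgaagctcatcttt
Second clone, beta chain, TRBV19 and TRBJ1-3: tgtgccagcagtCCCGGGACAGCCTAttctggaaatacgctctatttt
Second clone, alpha chain, TRAV3-3 and TRAJ31: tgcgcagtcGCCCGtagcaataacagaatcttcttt
Single member, beta chain, TRBV13-3 and TRBJ2-4: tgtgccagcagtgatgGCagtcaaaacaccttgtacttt
Single member, alpha chain, TRAV6N-7 and TRAJ47: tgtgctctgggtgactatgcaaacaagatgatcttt

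The beta segments lie on chromosome 6 and the alpha segments on chromosome 14 of GRCm38. TRBV29 spans 41271394 to 41271881 and TRBJ2-4 spans 41543362 to 41543410, and TRAV7-4 spans 53461099 to 53461738 and TRAJ57 spans 54158505 to 54158569, all on the plus strand in GENCODE vM21. Both shared beta chains had 14 bases between the segments, the single member's beta chain had 2, and its alpha chain had none. Over all members, beta chains had a median of 9 such bases (quartiles 7 and 12) in 203 matched chains, and comparison cells had the same median and quartiles in 841 chains. Alpha chains had a median of 3 bases in 139 chains of members and 2 bases in 658 chains of comparison cells, and 16.5% (10.8 to 23.8) and 17.0% (14.2 to 20.1) had none. The CDR3 was 41.4 ± 4.11 bases long in 207 beta chains of members and 41.6 ± 4.24 bases in 868 of comparison cells (mean ± SD over chains).

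Use of V and J segments was broad in members. Among 40 segments found in at least 20 cells of both groups together, the difference in share had an interval above 0 for 2 and below 0 for none, without adjustment for their number. TRBV31 was used by 17 of 182 members with a beta chain (9.34%) and 29 of 804 comparison cells (3.61%), and TRBJ2-3 by 21 (11.5%) and 50 (6.22%). The most used beta V segment of members was TRBV3, in 23 members (12.6%), and in comparison cells TRBV13-2, in 118 cells (14.7%) and in 19 members (10.4%). The alpha chain of invariant natural killer T cells, TRAV11 joined to TRAJ18, was found in 2 of 125 members with an alpha chain (1.60%, 0.194 to 5.66) and 13 of 612 comparison cells (2.12%, 1.14 to 3.61), so the absence of *Zbtb16* UMIs did not remove every such cell.

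A tumor could be given to few members. A cell was given a tumor if it had at least 1 hashtag UMI and all its hashtag UMIs came from the tags of 1 tumor. This held for 30 members (11.6%, 7.98 to 16.2) and 131 comparison cells (9.60%, 8.09 to 11.3). In B16 tumors 28 of 164 conventional CD4 cells were members (17.1%, 11.7 to 23.7), and in B16–IL-33 tumors 2 of 17 (11.8%, 1.46 to 36.4). The share in B16–IL-33 tumors minus that in B16 tumors was -5.31 percentage points (-17.6 to 19.96), so a difference between the tumors was not detectable at this number of tagged cells. By tag, the counts were 16 of 69 and 12 of 93 for the B16 tags numbered 1 and 2, and 2 of 8 and 0 of 9 for the B16–IL-33 tags, and the last count allows a share of up to 33.6% (Clopper-Pearson). The sources used here do not say if the numbered tags stand for separate animals.

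Within B16 tumors, the levels of the members could be compared with those of the 118 tagged comparison cells. *Lef1* had a ratio of 5.59 (3.32 to 9.63), *Tcf7* 3.73 (2.48 to 5.64) and *Klf2* 2.20 (1.68 to 2.88). *Actn1* had 22 UMIs in the 28 members and a ratio of 11.4 (4.5 to 34.5). *Gzmb* had a ratio of 0.10 (0.04 to 0.21), *Ccl5* 0.13 (0.09 to 0.19) and *S100a4* 0.21 (0.08 to 0.45), whereas the interval of *Cd44*, with 6 UMIs in members, included 1 (0.52, 0.18 to 1.25). The directions of these genes in B16 tumors were those of the whole pool.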

How the data were processed

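One pool of sorted T cells was analysed as a gene expression, a hashtag and a TCR library. The authors deposited raw UMI counts per gene and barcode, made with Cell Ranger (3.1.0 in the matrix header, 6.1.1 in the submitters' processing notes) on a combined human and mouse (mm10) reference, raw hashtag UMI counts, and a table of TCR contigs with UMI counts and clonotypes. These counts were not normalized.

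Cells with 200 to 2500 detected genes and under 5% mitochondrial UMIs were kept, as in the study's methods, and no doublet caller was run. Genes entered a comparison with at least 100 UMIs over both groups, without the genes of the rule and TCR segments, and "called" means a ratio of at least 2 or at most 0.5. Intervals are exact Poisson (CPM), exact conditional binomial (ratios), Clopper-Pearson (shares) and square-and-add (differences of shares), at 95%, in SciPy 1.17.1 under Python 3.11.15. Only the ratio and share intervals were run on simulated data, which were independent counts from the model of the intervals. UMIs gathered in few cells were not simulated, so this run does not show that the intervals hold for such genes. Because there is 1 pool, no p-value is given. Members and gene lists were chosen with earlier results of these data known. Named genes are list genes and the 10 highest and 10 lowest ratios of each comparison, ranked by the bound nearest 1. *Gas5* and *Snhg8* of the translation list were not matched. Germline V and J matches needed at least 6 bases of GENCODE vM21 transcripts, and 30934 of 31053 gene identifiers were found in vM21. Depth per group, thinning to 1500 UMIs (1 random draw) and the alternatives are given with the results. Some genes of the lists are counted but not reported here by name.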

Additional observations from a re-analysis of the deposited data

Results flagged for a closer look

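The gene expression reference held human genes beside the mouse genes, and 172 UMIs of members were assigned to human genes, which the comparisons did not use. This is 198 per 1000000 UMIs in members, against 159 in the comparison cells and 109 to 216 in the other groups with the same marker sum. The value was above the limit of 3 UMIs that a count of 0 allows, and no sample without mouse cells was analysed here.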

How the results depend on the processing

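Leaving out a replicate was not possible with 1 pool, and the depth of single cells limits how well cells are told apart. No paired analysis was possible because the results come from no test. Of the values for single genes, taken with the number of tested genes and the percentages past 2-fold, 417 moved by less than a limit, 100 moved by more and 2 reversed. The limit was the counting error of the reported value, or a fixed fold change for counts and for percentages of tested genes. Of the other values, 142 and 27 did so, and none of them reversed. The members were 10.7% of conventional CD4 cells at a marker sum of at least 3 and 8.84% (104 cells) after thinning. The difference to *Foxp3*-positive cells after thinning was 6.59 points, with both classes also set from the thinned UMIs. Genes at least 2-fold higher, 59 in the comparison reported, numbered 115 with no upper limit on genes, 34 after thinning, 26 with the rule applied to a random part of the UMIs and levels taken from the rest, 93 scaled without ribosomal protein genes and 220 at a minimum of 20 UMIs. Genes at least 2-fold lower, 478 as reported, numbered 302 without *Il2ra* or *Ikzf2* cells, 294 scaled without ribosomal protein genes and 1297 at a minimum of 20 UMIs. The number of tested genes changed with the cells, the depth and the UMI minimum, so these counts cannot be compared as shares. Without *Il2ra* or *Ikzf2* cells, fewer genes were tested than in the comparison reported. The quiescence median, 1.91, became 1.64 with no upper limit, 2.32 after thinning and 2.26 without ribosomal protein genes in the scale, and that of translation genes 1.32. With no upper limit the glycolysis median was 0.763. The Treg cell marker median, 0.259, became 0.354 with the divided UMIs, 0.350 without *Il2ra* or *Ikzf2* cells and 0.182 with the mean CPM of single cells, the CD8 marker median 0.161 with the divided UMIs, and the inhibitory receptor median 0.179 with the mean CPM. Clones defined by the beta chain alone put 3.82% of members and 23.2% of comparison cells in expanded clones, a difference of 19.4 points, and clones of at least 3 cells held 5.45% of comparison cells, a difference of 4.93 points. The ratios of *Cd69* (0.931) and *Cxcl2* (1.19) reversed with no upper limit on genes. The cause of these changes was not tested.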
